A study of Mus musculus with 30 samples.

Results

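The 33 genes described here belong to the unfolded protein response of the endoplasmic reticulum (ER). They were chosen by name: a gene was a member if its symbol in the deposited expression table was on a list of 33 chaperones, ER-associated degradation factors, stress sensors and targets of the transcription factor ATF4. All 33 were found among the 18022 genes of the table, and all 33 passed the expression filter that left 14740 genes for testing. By role they comprise 8 ER chaperones and cochaperones, 5 disulfide isomerases and oxidoreductases, 2 lectin chaperones, 7 genes of ER-associated degradation and the translocon, 5 sensors and transcription factors, and 6 genes of the ATF4 and CHOP branch.

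Adult female mice of the outbred CD1 stock were dosed for 10 days, and mRNA of their whole ovaries was sequenced. The groups received di(2-ethylhexyl) phthalate at 20 ug/kg/day (DEHP 20) or 200 ug/kg/day (DEHP 200), diisononyl phthalate at 20 ug/kg/day (DiNP 20) or 100 ug/kg/day (DiNP 100), or vehicle. Both phthalates are plasticizers, diesters of phthalic acid with different alcohol chains. Ovaries were collected either 3 months after the last day of dosing or directly at its end (0 months), which gave 10 groups of 3 libraries. The vehicle is not named in the sources used here, and the labels do not say that the 3 libraries of a group are separate mice, so a p-value reflects no more than how these libraries vary.

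The ER folds and modifies secreted and membrane proteins. When unfolded proteins accumulate there, 3 membrane sensors respond: IRE1 (encoded by Ern1) splices Xbp1 mRNA, ATF6 is cut to release a transcription factor, and PERK (encoded by Eif2ak3) phosphorylates eIF2alpha, which slows translation but favours that of Atf4. Spliced XBP1 and cleaved ATF6 drive genes of chaperones and degradation, and ATF4 drives genes of amino acid supply and of stress adaptation, among them Ddit3 (CHOP). In the ovary, granulosa, theca and luteal cells secrete proteins and hold extensive ER membranes for steroid synthesis. These data count total mRNA of a gene, so neither the splicing of Xbp1 nor the cleavage of ATF6 was measured.

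Promoter elements are known for the arms of the response. The ER stress element (ERSE), which reads CCAAT, any 9 bases and CCACG, is bound by NF-Y with ATF6 or XBP1, the shorter ERSE-II reads ATTGG, any 1 base and CCACG, and the C/EBP-ATF response element TGATGNAA is bound by ATF4 with a partner. RefSeq promoters (GRCm38.p6, 250 bases before to 50 after the start) were matched for 29 of the 33 genes, and both strands were searched. Promoters of Hyou1, Manf, Derl1 and Atf6 were not among those matched. The promoter matched for Edem1 lies inside the gene: it holds chr6:108828401, and the gene starts at 108824045. The bases just after the Herpud1 start were found in 0 GENCODE transcripts. The sequences below show the 250 bases before the start of 6 genes whose levels or differences are given later, 5′ to 3′ on the strand of the gene. The fixed letters of each match to ERSE, ERSE-II or the C/EBP-ATF element are in capitals, and CCACG outside these matches stays in lower case. A match on the opposite strand reads as its reverse complement, such as CGTGG before ATTGG.
Hspa5 (ERSE), chr2:34771840-34772089, plus strand: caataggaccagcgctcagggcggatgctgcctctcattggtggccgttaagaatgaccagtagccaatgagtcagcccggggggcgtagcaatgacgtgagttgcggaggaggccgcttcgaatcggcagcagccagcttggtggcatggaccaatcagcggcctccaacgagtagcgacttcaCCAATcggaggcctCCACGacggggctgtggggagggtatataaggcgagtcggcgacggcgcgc
Hsp90b1 (ERSE, 2 matches), chr10:86705445-86705694, minus strand: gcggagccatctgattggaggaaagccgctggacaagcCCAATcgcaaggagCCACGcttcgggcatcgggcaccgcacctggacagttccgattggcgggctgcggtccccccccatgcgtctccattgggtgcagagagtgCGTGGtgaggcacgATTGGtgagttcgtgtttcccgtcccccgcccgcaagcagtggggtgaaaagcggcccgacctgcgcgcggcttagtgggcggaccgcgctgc
Calr (ERSE), chr8:84846932-84847181, minus strand: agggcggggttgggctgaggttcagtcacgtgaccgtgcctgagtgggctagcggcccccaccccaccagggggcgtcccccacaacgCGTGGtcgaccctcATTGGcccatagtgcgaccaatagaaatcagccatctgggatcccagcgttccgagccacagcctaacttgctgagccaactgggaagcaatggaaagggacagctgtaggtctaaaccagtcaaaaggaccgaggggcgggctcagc
Pdia6 (ERSE), chr12:17266339-17266588, plus strand: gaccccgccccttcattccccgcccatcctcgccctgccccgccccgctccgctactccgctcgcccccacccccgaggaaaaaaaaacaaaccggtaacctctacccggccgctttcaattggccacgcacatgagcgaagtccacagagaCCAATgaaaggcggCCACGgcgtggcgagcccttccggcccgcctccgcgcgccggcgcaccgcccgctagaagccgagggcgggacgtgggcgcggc
Herpud1 (ERSE-II and C/EBP-ATF response element), chr8:94386179-94386428, plus strand: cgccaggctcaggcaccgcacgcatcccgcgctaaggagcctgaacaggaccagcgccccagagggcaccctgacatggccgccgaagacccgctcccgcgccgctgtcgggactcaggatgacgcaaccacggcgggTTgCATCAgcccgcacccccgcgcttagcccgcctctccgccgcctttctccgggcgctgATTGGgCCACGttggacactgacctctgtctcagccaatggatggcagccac
Chac1 (C/EBP-ATF response element), chr2:119350992-119351241, plus strand: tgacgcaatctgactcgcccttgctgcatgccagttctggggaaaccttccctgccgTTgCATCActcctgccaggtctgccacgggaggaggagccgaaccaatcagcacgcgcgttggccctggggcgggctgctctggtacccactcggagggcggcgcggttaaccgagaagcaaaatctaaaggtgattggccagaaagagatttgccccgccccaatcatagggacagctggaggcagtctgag

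ERSE matches stood in the promoters of 9 of 29 members (31.0%), against 39 of all 32851 promoters of the same length (0.119%) and 1 of 106 promoters of other genes of the pathway. By role, the element was found in 3 of 6 chaperone promoters, 2 of 5 isomerase, 2 of 2 lectin chaperone and 2 of 6 degradation promoters, and in 0 of 4 sensor and 0 of 6 ATF4-branch promoters. The other 5 matches, shown to let the 9-base spacer be compared, were as follows.
Dnajc3, chr14:118937827-118937845, plus strand: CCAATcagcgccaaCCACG
Canx, chr11:50325800-50325818, minus strand: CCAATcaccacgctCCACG
Creld2, chr15:88819520-88819538, plus strand: CGTGGcgagcctcaATTGG
Derl3, chr10:75893242-75893260, plus strand: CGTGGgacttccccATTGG
Syvn1, chr19:6046532-6046550, plus strand: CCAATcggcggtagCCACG

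In these matches the spacer letters differ from gene to gene between the fixed CCAAT and CCACG boxes. ERSE-II matched 2 member promoters (6.9%, against 0.0365% of all), those of Herpud1 and Dnajb11, and it shares the CCACG letters with ERSE. The C/EBP-ATF element matched 4 (13.8%, against 3.97% of all and 14 of the 106 other pathway promoters): Asns, Chac1, Trib3 and Herpud1, of which the first 3 belong to the ATF4 branch and the last also holds ERSE-II. The short CCACG box alone matched 23 of 29 (79.3%, against 32.8% of all and 65 of the 106 others). A match is a string of letters and says nothing of binding in these ovaries. The members were chosen by name as genes of this response, so their excess over all promoters is only a description.

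The table gave log2 CPM (reads of a gene, scaled by the authors), printed below also as CPM. Repeated low values of the deposited data were best matched by steps for approximately 24.9 to 40.5 M reads (M, mega) per library, with a median of 30.25 M. Only 13.8 to 24.9% of all low values fell on such steps, so these depths are rough estimates that were not established. These depths are as scaled by the authors and can differ from the reads sequenced. Read counts were not used here. Ovarian markers were present in every library: summed granulosa cell markers ran from 2158 to 5571 CPM and summed oocyte markers from 174 to 739 CPM. Corpus luteum markers summed to 41719 and 4348 CPM in replicates 2 and 3 of DEHP 200 at 0 months, the highest and the lowest of that time, so medians resting on that group are also given with replicate 1 only. Of the markers of plasma cells, which are rich in ER chaperones, Jchain averaged 1.37 CPM and Mzb1 0.475 CPM. Cd79a, Cd79b and Ms4a1, B cell markers of the same list, averaged 0.625, 0.729 and 0.893 CPM. Derl3, which is on that list and is also a member here, averaged 37.1 CPM. The CPM of DiNP 100 replicate 3 at 3 months summed to 1164842 over the table, the highest of the 30 libraries. Plain library depth was therefore not the only scaling. In bulk tissue, fewer cells of a type and less RNA per cell cannot be told apart.

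At 0 months most of the genes were lower in each treated group than in vehicle, chaperones and disulfide isomerases most of all, but no gene passed the test. Of the 33 genes, 32 were lower in DEHP 20 ovaries (48.7% of all genes tested), with a median log2 fold change of -0.24, and 32 in DEHP 200 ovaries (50.4%), with a median of -0.37. In DiNP 20 ovaries 27 were lower (50.3%; median -0.23), and in DiNP 100 ovaries 27 (46.2%; median -0.15). The medians of all genes tested were at most 0.01. The 4 comparisons share the same 3 vehicle libraries. Limma with Benjamini-Hochberg adjustment over 14740 genes called 0 of the 33, and 0 genes of the table, in each (lowest adjusted p of a member 0.9139, in DEHP 200).

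The chaperones had the largest median difference of the 6 roles. Hspa5 (Entrez 14828; GRCm38.p6, chr2:34772090-34776529) encodes BiP, the ER Hsp70 that also holds the sensors inactive. It stood at 1463, 1138 and 1538 CPM with DEHP 20, at 1105.5, 1475 and 1142 CPM with DEHP 200, at 1222, 1380.2 and 1431 CPM with DiNP 20 and at 1590.3, 1622 and 1348 CPM with DiNP 100, against 1798, 1899 and 1832 CPM with vehicle. All 12 treated libraries lay below all 3 vehicle libraries. The mean of the 4 treated groups differed from vehicle by -0.44 ± 0.20 (SE) on the log2 scale.

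Hsp90b1 (Entrez 22027; chr10:86690841-86705444), which encodes the ER Hsp90 GRP94, stood at 1367, 1143 and 1549 CPM with DEHP 20 and at 1251, 1353 and 1188 CPM with DEHP 200. The DiNP 20 libraries had 1196, 1414 and 1347 CPM and the DiNP 100 libraries 1706, 1655 and 1285 CPM, against 1928, 3132 and 1729 CPM with vehicle. Again the 12 treated libraries lay below the 3 vehicle libraries, of which replicate 2 was far above the others. The difference of the mean of the 4 treated groups was -0.68 ± 0.22, with a 95% interval of -1.14 to -0.23, at 10.41 log2 CPM in treated ovaries and 11.09 in vehicle, and it was -0.42 without vehicle replicate 2.

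Sdf2l1, whose product supports the BiP folding cycle with ER J-proteins, ran from 24.9 to 45.2 CPM (median 37.2) in the 12 treated libraries, against 51.0, 68.1 and 56.9 CPM with vehicle, a difference of -0.72 ± 0.25. Manf, a secreted ER stress protein that binds BiP, ran from 129 to 186 CPM (median 158) in treated ovaries, against 207.5, 228 and 208 CPM with vehicle (-0.43 ± 0.20). Creld2, an ER-resident protein of the isomerase group, ran from 52.7 to 85.4 CPM (median 69.7), against 96.1, 108 and 91.0 CPM with vehicle (-0.53 ± 0.27). These 3 genes, Hspa5 and Hsp90b1 were the 5 members with all treated libraries below all vehicle libraries; 32 genes of the table (0.217%) met that condition. The same 5 met it without vehicle replicate 2 (0.407% of all genes), and 8 did without vehicle replicate 1 (1.21%) or without replicate 3 (0.929%).

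Dnajb9, the J-protein ERdj4 that keeps IRE1 in check, overlapped slightly: treated libraries ran from 58.7 to 76.0 CPM (median 65.6), against 71.8, 89.6 and 91.1 CPM with vehicle (-0.34 ± 0.11). Hyou1, the ER Hsp110 that exchanges nucleotide on BiP, differed by -0.47 ± 0.18. Dnajb11 (ERdj3) differed by -0.22 ± 0.13, and Dnajc3 (p58IPK), an inhibitor of PERK, by -0.12 ± 0.10.

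**Figure D1:**
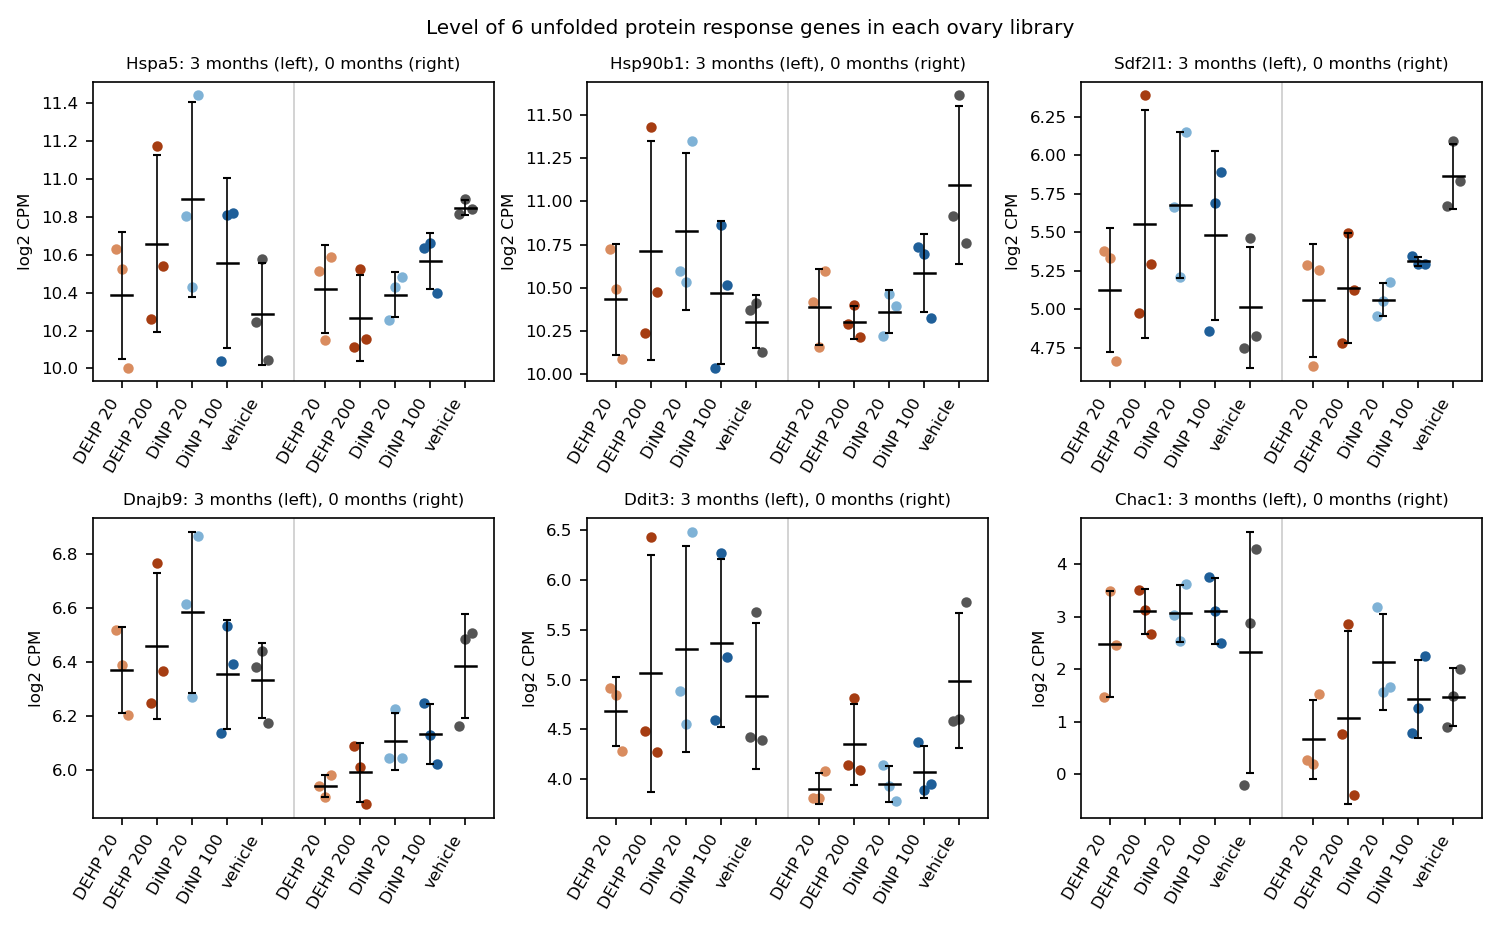
Log2 CPM (vertical axes) of 6 genes in each of the 30 libraries, by group, with 3 months in the left block and 0 months in the right. Points are libraries, and bars are group means ± SD (n = 3). At 0 months the 12 treated points of Hspa5, Hsp90b1 and Sdf2l1 lie below the 3 vehicle points, and at 3 months they overlap them.

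Pdia4, a disulfide isomerase, ran from 235 to 442 CPM (median 297) in treated ovaries, against 381, 914 and 377 CPM with vehicle (-0.75 ± 0.29), and 1 vehicle library again stood far above the rest. Without that library, replicate 2, the difference was -0.33, against -0.46 for Creld2, -0.25 for Pdia6 and -0.21 for Pdia3. With all libraries, Pdia6, which also acts on the sensors, differed by -0.41 ± 0.17 and Pdia3, which works with the lectin chaperones, by -0.32 ± 0.13. P4hb, the classical protein disulfide isomerase, differed by -0.09 ± 0.11. Of the lectin chaperones, Calr (calreticulin) ran from 885 to 1603 CPM in treated ovaries, against 1377, 1519 and 1216 CPM with vehicle (-0.25 ± 0.15), and Canx (calnexin) differed by -0.14 ± 0.08.

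The degradation genes differed less as a group, with a median of -0.18 over 7. Herpud1, which organises the degradation complex, ran from 51.1 to 94.3 CPM in treated ovaries, against 66.2, 94.6 and 134 CPM with vehicle (-0.44 ± 0.27; -0.18 without vehicle replicate 3). Syvn1 (HRD1), the ubiquitin ligase of that complex, differed by -0.40 ± 0.18, its partner Sel1l by -0.18 ± 0.09 and the dislocation factor Derl1 by 0.00 ± 0.11. Derl3, a relative of Derl1, stood at -0.41 ± 0.34, Edem1, which hands misfolded glycoproteins to degradation, at -0.08 ± 0.18 and the translocon subunit Sec61b at -0.05 ± 0.18.

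The sensors and transcription factors stood near vehicle, with 5 of 5 lower, a median of -0.12 and a range of -0.18 (Atf6) to -0.06 (Xbp1). Xbp1 ran from 119 to 208 CPM in treated ovaries, against 157, 188 and 165 CPM with vehicle, and Atf4 from 110 to 197 CPM, against 157, 152 and 148 CPM. In the ATF4 branch (median -0.11) only Ddit3, which encodes the pro-apoptotic factor CHOP, and Sesn2, a stress-responsive sestrin, had an unadjusted p under 0.05. Ddit3 stood at 14.1, 14.1 and 16.9 CPM with DEHP 20, at 17.7, 28.2 and 17.1 CPM with DEHP 200, at 17.6, 15.2 and 13.8 CPM with DiNP 20 and at 20.7, 14.8 and 15.5 CPM with DiNP 100, against 24.0, 24.4 and 54.9 CPM with vehicle. Only DEHP 200 replicate 2 among the treated libraries reached the vehicle range, and the difference was -0.92 ± 0.41 (-0.53 without vehicle replicate 3). Sesn2 differed by -0.34 ± 0.15. Asns (asparagine synthetase) stood at -0.09, Trib3 (a pseudokinase that restrains ATF4 and CHOP) at -0.03, Chac1 (a glutathione-degrading enzyme) at -0.14 and Ppp1r15a (GADD34, which reverses eIF2alpha phosphorylation) at 0.03.

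Over the mean of the 4 treated groups at 0 months, 31 of 33 genes were lower, with a median of -0.22 (0.003 over all genes tested, 48.9% of which were lower). By role the medians were -0.44 for chaperones, -0.41 for isomerases, -0.19 for lectin chaperones, -0.18 for degradation, -0.12 for sensors and -0.11 for the ATF4 branch. An unadjusted p under 0.05 with a lower level was reached by 12 members, among them 6 of 8 chaperones, and by 219 genes of the table (1.49%), and 0 members or genes passed adjustment. Vehicle replicate 2 weighed on these values: without it 27 of 33 genes were lower and the median was -0.13. With replicate 1 only of DEHP 200 the median was -0.27.

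With DEHP 20, 15 of 33 genes had all 3 treated libraries below all 3 vehicle libraries (4.8% of all genes) and 7 had an unadjusted p under 0.05 on that side (1.21%). The smallest p were those of Dnajb9 (-0.44 ± 0.14; 5.94 ± 0.04 with DEHP 20 and 6.39 ± 0.19 log2 CPM with vehicle, SD, n = 3 each), Sdf2l1 (-0.81 ± 0.32) and Hsp90b1 (-0.70 ± 0.28). With DEHP 200 these counts were 15 (4.25%) and 12 (3.31%), led by Canx (-0.32 ± 0.10), Hyou1 (-0.67 ± 0.22) and Dnajc3 (-0.35 ± 0.12).

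With DiNP 20 the counts were 13 (4.67%) and 5 (1.2%), led by Hsp90b1 (-0.73 ± 0.28), Sesn2 (-0.49 ± 0.19) and Sdf2l1 (-0.80 ± 0.32). With DiNP 100 they were 7 (4.26%) and 0 (0.95%), led by Hsp90b1 (-0.51 ± 0.28), Pdia4 (-0.65 ± 0.36) and Ddit3 (-0.92 ± 0.52). In that group Hsp90b1 stood at -0.25 and Pdia4 at -0.22 without vehicle replicate 2, and Ddit3 at -0.52 without vehicle replicate 3. Hsp90b1 stood at -0.44 with DEHP 20 and at -0.47 with DiNP 20 without vehicle replicate 2. Without vehicle replicate 2 the median was -0.15 with DEHP 20, -0.13 with DiNP 20 and -0.08 with DiNP 100. Leaving out DEHP 20 replicate 1 gave -0.42 for that group, and leaving out DiNP 100 replicate 1 gave -0.23 for that one. With replicate 1 only of DEHP 200 its median was -0.43.

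**Figure D2:**
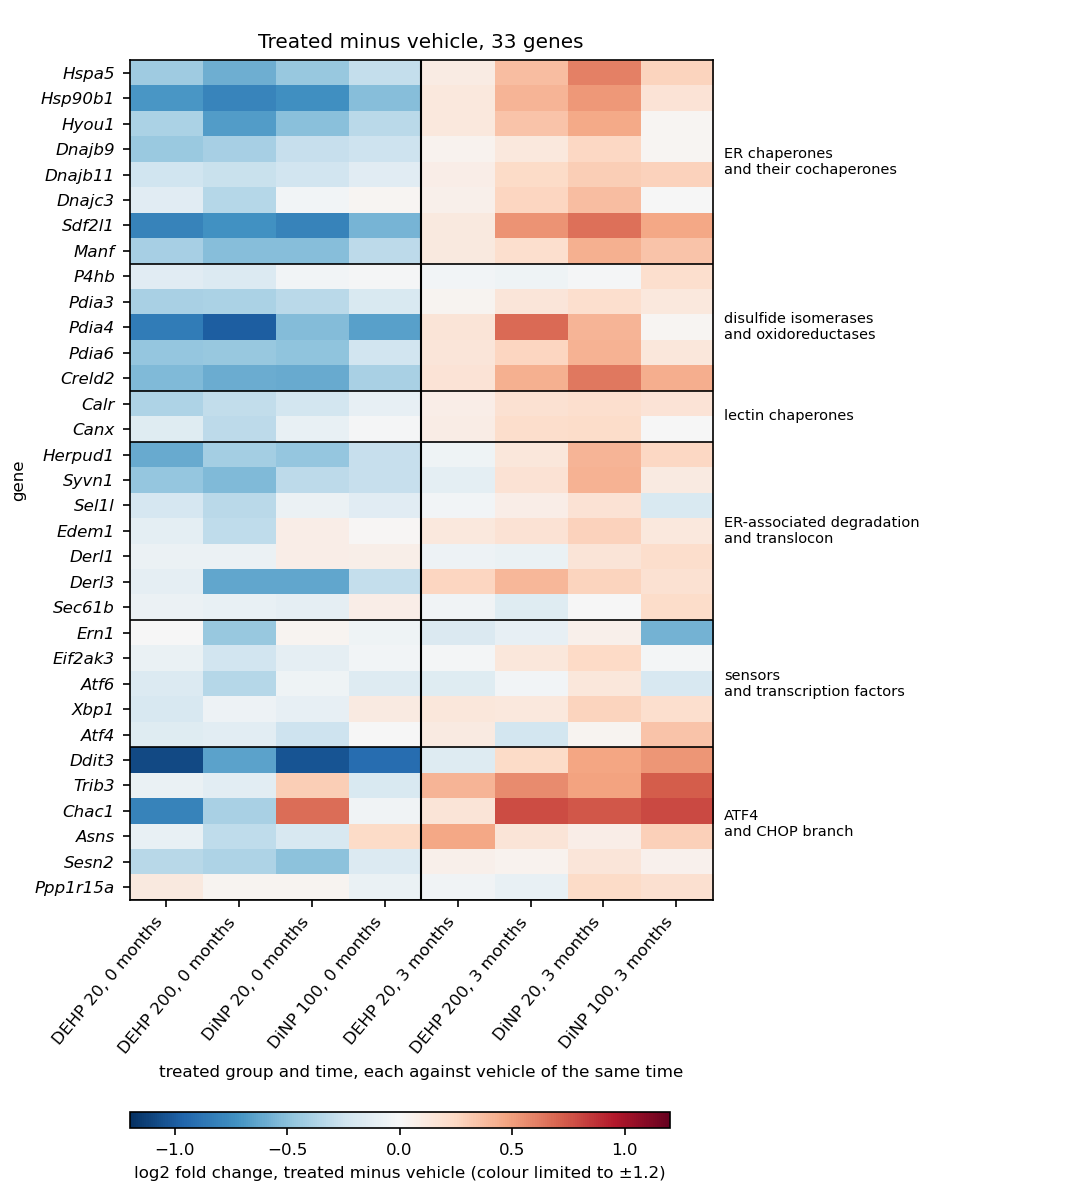
Log2 fold change (colour, limited to ±1.2) of each of the 33 genes, in rows by role, in each treated group against vehicle of the same time, in columns. Blue is lower and red is higher in the treated group. The 0-month columns are mostly blue among chaperones and isomerases (median -0.44 and -0.41 over the mean of the 4 groups), and the 3-month columns are mostly red (0.26 and 0.24).

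Other genes of the pathway, 109 of which were tested, stood closer to vehicle at 0 months: 74 were lower, 5 with an unadjusted p under 0.05, 0 passed adjustment, and the median was -0.04. The 42 other genes of ER folding, oxidation and translocation had a median of -0.07, with the J-protein reductase gene Dnajc10 at -0.15 ± 0.07 and the oligosaccharyltransferase gene Stt3a at -0.16 ± 0.08. The 18 other degradation genes had a median of -0.00, with 9 lower, among them Selenos at -0.15 ± 0.14, and with the ubiquitin-conjugating enzyme gene Ube2j2 at 0.14 ± 0.10. The 16 other sensors, proteases and factors had a median of -0.01, with the pro-apoptotic gene Bbc3 at -0.40 ± 0.18 and the eIF2alpha kinase gene Eif2ak4 at -0.11 ± 0.08. The 33 other targets of the integrated stress response had a median of -0.05, with Cebpg, a partner of ATF4, at -0.21 ± 0.09 and the mitochondrial folate enzyme gene Aldh1l2 at -1.0 ± 0.47. Heat shock and immediate early genes, a list that tissue handling can move, summed to 2693 to 5290 CPM in treated ovaries, against 3946 to 4502 CPM with vehicle, and 10 of 12 were lower (median -0.14). The part of handling in the chaperone values was not tested.

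At 3 months most of the genes were higher in treated than in vehicle ovaries, and again no member passed the test. Over the mean of the 4 treated groups 31 of 33 genes were higher than in vehicle, with a median of 0.18 (0.004 over all genes, 51.1% of which were higher). The chaperones had a median of 0.26 (8 of 8 higher), the isomerases of 0.24, the degradation genes of 0.14 (7 of 7), the sensors of 0.07 (3 of 5) and the ATF4 branch of 0.26 (6 of 6). Limma called 0 members after adjustment and 0 had an unadjusted p under 0.05 (0.726% of all genes on the higher side). The median was 0.11 without vehicle replicate 1, where 22 of 33 were higher, and 0.12 without vehicle replicate 3, where 30 were.

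Hspa5 at 3 months stood at 1582, 1473 and 1027 CPM with DEHP 20 and at 1229, 2309.9 and 1488 CPM with DEHP 200. With DiNP 20 it stood at 1787, 1378 and 2781 CPM and with DiNP 100 at 1052, 1791 and 1809.7 CPM, against 1213, 1527 and 1057 CPM with vehicle. The difference was 0.33 ± 0.20. Treated and vehicle libraries overlapped, and the 2 highest were DiNP 20 replicate 3 and DEHP 200 replicate 2. Sdf2l1 ran from 25.4 to 83.9 CPM (median 41.0) in treated ovaries, against 26.9, 44.1 and 28.4 CPM with vehicle (0.45 ± 0.25), and Hsp90b1 from 1052 to 2760.4 CPM (median 1471.8), against 1326, 1366 and 1119.6 CPM. Dnajc3 had the smallest p, at 217 to 338 CPM (median 269) in treated ovaries, against 220.04, 229.96 and 281 CPM with vehicle (0.17 ± 0.10; 0.10 without vehicle replicate 1), and Canx differed by 0.13 ± 0.08 (0.07 without vehicle replicate 2). Without vehicle replicate 2 Sdf2l1 stood at 0.67.

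In the other roles the treated range at 3 months enclosed most vehicle values. Pdia4 ran from 211 to 625 CPM (median 336) in treated ovaries, against 388, 331 and 211 CPM with vehicle, and Calr from 992 to 1648 CPM (median 1318), against 1101, 1180.5 and 1189 CPM. Herpud1 ran from 64.1 to 177 CPM (median 93.7), against 78.6, 132 and 63.2 CPM with vehicle. Of the factors themselves, Xbp1 ran from 148 to 237 CPM (median 185), against 176, 178 and 139.7 CPM, and Atf4 from 116 to 222 CPM (median 160.3), against 125, 167 and 168 CPM. Ddit3 stood at 86.2 CPM in DEHP 200 replicate 2, at 89.6 CPM in DiNP 20 replicate 3, at 77.0 CPM in DiNP 100 replicate 2 and at 19.3 to 37.6 CPM in the other treated libraries, against 21.5, 51.3 and 21.1 CPM with vehicle. In each of those 3 groups a single library was thus far above the other libraries of its group.

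By group, 22 of 33 genes were higher in DEHP 20 ovaries (51.1% of all genes; median 0.08) and 26 in DEHP 200 ovaries (47.1%; median 0.17), again against 3 shared vehicle libraries. With DiNP 20, 31 were higher (50.3%; median 0.27), and with DiNP 100, 27 (51.5%; median 0.18). With DiNP 20, 8 genes had all 3 treated libraries above all 3 vehicle libraries (2.97% of all genes) and 5 had an unadjusted p under 0.05 on that side (0.814%). Those 5 were Dnajc3 (0.37 ± 0.12), Hspa5 (0.60 ± 0.26; 0.33 without DiNP 20 replicate 3), Canx (0.22 ± 0.10), Sdf2l1 and Eif2ak3. With DEHP 200 full separation was seen upward for Canx (0.21 ± 0.10) and Eif2ak3 (2.81% of all genes) and downward for Sec61b (2.46%), and 2 genes had an unadjusted p under 0.05 on the higher side (0.95%), Canx and Dnajc3 (0.26 ± 0.12), ahead of Pdia4 (0.68 ± 0.36; 0.43 without vehicle replicate 3). With DEHP 20 it was seen for 1 gene (3.09%), Asns (0.46 ± 0.30), followed by Canx (0.09 ± 0.10) and Atf6 (-0.15 ± 0.17), and with DiNP 100 for 0 (2.77%), where Dnajb11 (0.28 ± 0.17) and Atf4 (0.35 ± 0.21) led the higher genes. In DiNP 100 ovaries Ern1 differed by -0.57 ± 0.22 (limma adjusted p = 0.5184; 4.91% of all genes had an unadjusted p under 0.05 on the lower side), with 82.5, 97.0 and 38.8 CPM against 96.5, 89.2 and 118 CPM with vehicle. It passed without DiNP 100 replicate 2 (-0.83, limma adjusted p = 0.04634), a fit in which the share of all genes passing was not counted. Ern1 stood at -0.17 without DiNP 100 replicate 3, the library at 38.8 CPM. Without that replicate 3, Dnajb11 stood at 0.08.

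These group values leaned on single libraries. With DEHP 200 the median was 0.02 without its replicate 2 and 0.30 without its replicate 1. With DiNP 100 it was 0.29 without its replicate 1, 0.09 without its replicate 3 and 0.11 without vehicle replicate 3. With DiNP 20 it was 0.41 without its replicate 2. With DEHP 20 it was -0.02 without its replicate 1 and -0.01 without vehicle replicate 1, so its sign was not stable, and it was 0.03 without its replicate 2, 0.15 without its replicate 3, 0.16 without vehicle replicate 2 and 0.02 without vehicle replicate 3. Oviduct epithelium markers, which show tissue beside the ovary, summed to at most 167 CPM in treated libraries and 9.29 CPM with vehicle at 3 months, and their part in these values was not tested.

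The difference between the treated-minus-vehicle values at 3 months and at 0 months was tested directly as an interaction. It was positive for 32 of 33 genes (49.7% of all genes), with a median of 0.44 on the log2 scale (-0.001 over all genes; 0.46 with replicate 1 only of DEHP 200 at 0 months). An unadjusted p under 0.05 on that side was reached by 14 members, which included 8 of 8 chaperones and 4 of 5 isomerases, against 128 genes of the table (0.868%), and 0 members passed adjustment in limma. Sdf2l1 had 1.17 ± 0.36, Hsp90b1 0.99 ± 0.31, Pdia4 1.07 ± 0.41, Hspa5 0.77 ± 0.29, Hyou1 0.70 ± 0.25 and Dnajb9 0.45 ± 0.16. The sensors had a median of 0.19 and the ATF4 branch of 0.49, both with 0 members under that p, although Ddit3 stood at 1.19 ± 0.58.

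Both vehicle groups enter that interaction, so their own difference bears on it. Vehicle ovaries at 3 months had lower levels than vehicle ovaries at 0 months for 25 of 33 genes (50.5% of all genes; median -0.12; -0.22 without vehicle replicate 1 at 0 months), and 12 members separated fully downward (7.11% of all genes). All 8 chaperones were lower, with a median of -0.53, and 4 of 5 isomerases. Hsp90b1 differed by -0.79 ± 0.28 (limma adjusted p = 0.5926), Sdf2l1 by -0.85 ± 0.32, Hyou1 by -0.62 ± 0.22 and Pdia6 by -0.56 ± 0.21. Of the 33 genes 0 passed adjustment (0.00678% of all genes did, 1 gene) and 8 had an unadjusted p under 0.05 on the lower side (3.88%).

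Vehicle at 0 months was the highest of all 10 groups for 12 of the 33 genes, against 1499 of 14740 genes (10.2%) in the table, among them 5 of 8 chaperones, 4 of 5 isomerases and 0 of 5 sensors. The mean of the 8 chaperones at 0 months was 7.82 log2 CPM in DEHP 20, 7.73 in DEHP 200, 7.82 in DiNP 20 and 7.97 in DiNP 100 ovaries, against 8.26 ± 0.17 (SD, n = 3) with vehicle. At 3 months it was 7.89 in DEHP 20, 8.11 in DEHP 200, 8.25 in DiNP 20 and 7.99 in DiNP 100 ovaries, against 7.80 ± 0.12 with vehicle. The vehicle groups therefore held both the highest and the second lowest chaperone mean of the 10. Whether the distance at 0 months lies in the treated or in the vehicle ovaries cannot be told apart with 1 vehicle group at each time.

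**Figure D3:**
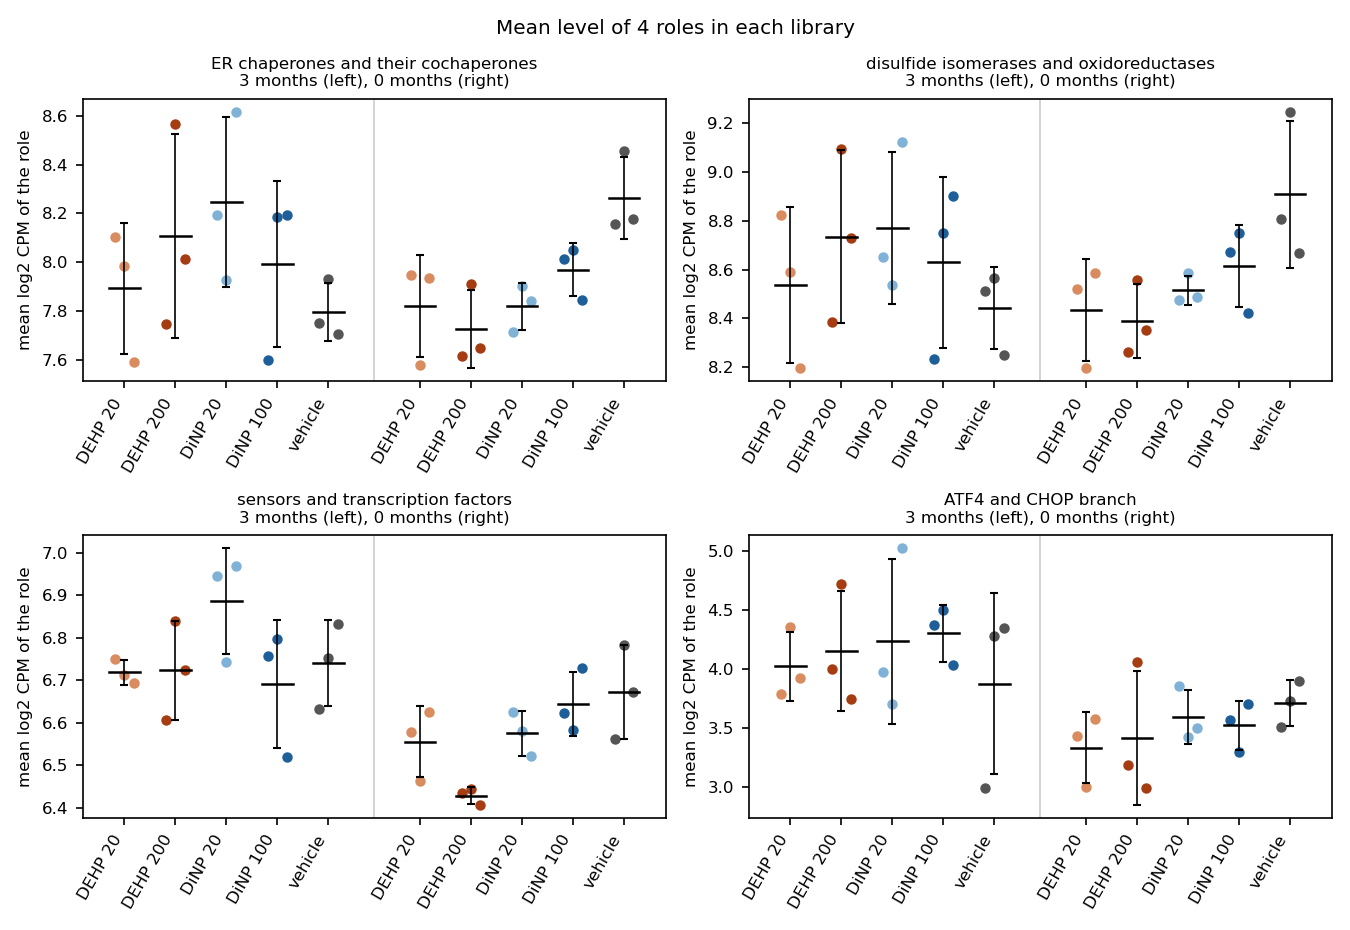
Mean log2 CPM (vertical axes) of the members of 4 roles in each library, by group, with 3 months left and 0 months right. Points are libraries, and bars are group means ± SD (n = 3). The chaperone mean was 8.26 in vehicle ovaries at 0 months, above every other group.

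Between the collection times 8 of the 33 genes passed the test, all of them higher at 3 months. Over the mean of the 5 groups, these genes rose at 3 months relative to 0 months at a limma adjusted p under 0.05 and 0 fell, where 10.6% of all genes rose and 9.63% fell. The share that rose, 8 in 33, was above the 10.6% of all genes. In either direction 20.3% of all genes were called, and the 8 calls in 33 members stood near that share. Of the 33 genes 29 were higher (50.7% of all genes), with a median of 0.10 (0.003 over all genes). With replicate 1 only of DEHP 200 at 0 months, 9 genes passed and the median was 0.15; it was 0.16 without vehicle replicate 2 at 0 months, and 0.15 without replicate 3 of DEHP 20, replicate 1 of DEHP 200 or replicate 1 of DiNP 100 at 3 months. The genes that rose were spread over the roles: 3 of 6 ATF4-branch genes, 2 of 7 degradation genes, 2 of 8 chaperones and 1 of 5 sensors rose, and 0 of 5 isomerases. In this comparison time after dosing, age of the mice and collection date cannot be told apart.

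In the ATF4 branch, Chac1 ran from 0.864 to 19.5 CPM (median 8.19) in the 15 libraries at 3 months, against 0.759 to 9.08 CPM (median 2.80) in the 15 at 0 months. It rose by 1.46 ± 0.38 (2.76-fold; limma adjusted p = 0.01086) and was higher at 3 months in 5 of 5 groups, although the libraries overlapped. Ddit3 ran from 19.3 to 89.6 CPM (median 28.6), against 13.8 to 54.9 CPM (median 17.1) at 0 months, and rose by 0.80 ± 0.23 (1.74-fold; adjusted p = 0.02036). By group its difference was 0.78 in DEHP 20, 0.71 in DEHP 200, 1.36 in DiNP 20 and 1.29 in DiNP 100 ovaries, but -0.16 in vehicle. Trib3 rose by 0.96 ± 0.34 (1.94-fold; limma adjusted p = 0.04959), at 1.03 to 15.4 CPM against 1.16 to 5.79 CPM, and it no longer passed in 21 of 30 fits that left out 1 library each.

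Of the degradation genes, Edem1 ran from 91.8 to 184 CPM (median 146) at 3 months, against 78.1 to 144 CPM (median 105) at 0 months, and rose by 0.44 ± 0.10 (limma adjusted p = 0.005222). Derl1 ran from 134 to 219 CPM (median 166), against 109 to 162 CPM (median 139), and rose by 0.29 ± 0.06 (adjusted p = 0.004096), with each of the 5 groups between 0.23 and 0.39. Both were higher at 3 months in all 5 groups, vehicle included.

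Of the chaperones, Dnajb9 rose by 0.31 ± 0.06 (limma adjusted p = 0.003146), with 0.43 and 0.47 in the DEHP groups, 0.48 and 0.22 in the DiNP groups and -0.05 with vehicle. Dnajc3 rose by 0.21 ± 0.05 (adjusted p = 0.0112), with a range from 0.58 with DEHP 200 to -0.06 with DiNP 100. Atf6, the only sensor gene called, ran from 80.9 to 162 CPM (median 125) at 3 months, against 72.3 to 120 CPM (median 101) at 0 months, and rose by 0.28 ± 0.08 (adjusted p = 0.01312). The next genes, P4hb and Ern1, did not pass (limma adjusted p = 0.06128 and 0.06302). Hspa5 stood at 0.06 ± 0.11 over the 5 groups, with -0.56 in vehicle and 0.50 in DiNP 20 as its extremes, and Hsp90b1 at 0.00 ± 0.13, with -0.79 in vehicle and 0.46 in DiNP 20.

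**Figure D4:**
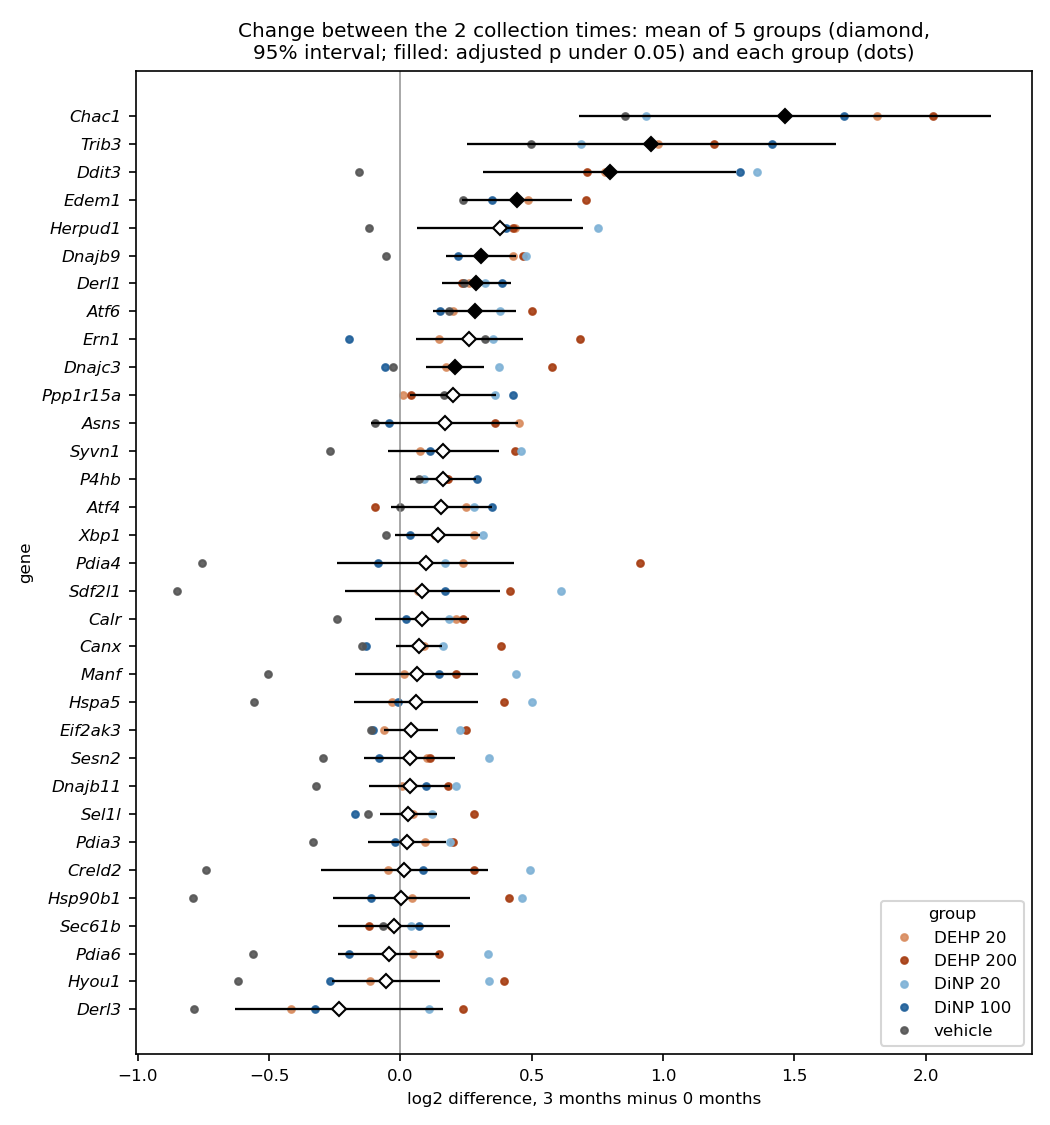
Log2 difference of 3 months minus 0 months (horizontal axis) for each of the 33 genes (vertical axis, ordered by the mean of the 5 groups). Diamonds are the mean of the 5 groups with a 95% interval, filled where the limma adjusted p is under 0.05, and dots are the single groups. The 8 filled diamonds include Chac1 at 1.46 and Derl1 at 0.29, and the vehicle dots of most chaperones lie left of 0.

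Without both vehicle groups, a comparison added after the data were seen, 7 of the 33 genes rose (6.74% of all genes) and 0 fell (6.51%), with a median of 0.20, and Trib3 did not pass (limma adjusted p = 0.06257). Among the 109 other pathway genes 22 rose (10.6% of all genes) and 6 fell (9.63%) over the 5 groups, with a median of 0.06. Of the 18 other degradation genes, 7 were among the 22. Cell markers moved over the same interval, in which 9.63% of all genes were called lower and 10.6% higher. Granulosa cell genes were lower at 3 months in 10 of 10 members (8 called) and summed to 2158 to 4047 CPM, against 2652 to 5571 CPM at 0 months. Oocyte genes were lower in 10 of 10 (9 called), at 174 to 464 CPM against 299 to 739 CPM, macrophage genes higher in 8 of 8 (7 called), at 273 to 638 CPM against 181 to 401 CPM, and luteal genes higher in 8 of 9 (2 called), at 11710 to 50413 CPM against 4348 to 41719 CPM. Their part in the rise of the 8 genes was not tested.

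DEHP and DiNP were given at 1 matched dose, 20 ug/kg/day, which allows 2 pairs, 1 at each time; their p-values were adjusted together. The compounds differ in the alcohol of the ester, 2-ethylhexanol in DEHP and a mixture of longer branched isononyl alcohols in DiNP. At 0 months 20 of 33 genes were lower with DEHP 20 than with DiNP 20 (48.8% of all genes; median -0.05), 0 passed in limma, 0 had an unadjusted p under 0.05 (2.05%), and 2 separated fully downward (4.72% of all genes). Derl3 differed by 0.51 ± 0.43. Those that separated were Dnajb9 (-0.17 ± 0.14) and Chac1, with 1.203, 1.14 and 2.87 CPM with DEHP 20 against 9.08, 2.96 and 3.14 CPM with DiNP 20 (-1.47 ± 0.85, 95% interval -3.23 to 0.28; -0.95 without DiNP 20 replicate 1). The sign of the median was not stable: it was 0.06 without DEHP 20 replicate 2, against -0.10 without its replicate 1 or 3, -0.02 without DiNP 20 replicate 2 and -0.07 without DiNP 20 replicate 3.

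At 3 months 31 of 33 genes were lower with DEHP 20 than with DiNP 20 (49.9% of all genes; median -0.24; -0.11 without DiNP 20 replicate 3 and -0.15 without DEHP 20 replicate 3), and 6 separated fully (4.12% of all genes). Again 0 passed (lowest limma adjusted p = 0.9999) and 3 had an unadjusted p under 0.05 (1.02%). Dnajc3 stood at 249.7, 267 and 243 CPM with DEHP 20 and at 319, 286 and 338 CPM with DiNP 20, without overlap (-0.31 ± 0.12, 95% interval -0.56 to -0.06). Syvn1 differed by -0.53 ± 0.23 (-1.01 to -0.06; -0.33 without DiNP 20 replicate 3), Eif2ak3 by -0.26 ± 0.11 and Hspa5 by -0.51 ± 0.26 (-1.03 to 0.02). With no gene passing adjustment and intervals this wide, neither an equal nor a different response to the compounds was shown.

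Doses of 1 compound were compared within each time. At 0 months DEHP 200 was lower than DEHP 20 for 22 of 33 genes (52.6% of all genes; median -0.06), and DiNP 100 was higher than DiNP 20 for 24 (52.7%; median 0.12), with 0 members passing in either. Single libraries set the sign of the DEHP median: leaving out DEHP 20 replicate 1 gave 0.03, leaving out its replicate 2 gave -0.18 and leaving out its replicate 3 gave -0.01. With replicate 3 of DEHP 200 left out it was 0.003. It was -0.004 without DEHP 200 replicate 1, -0.15 without DEHP 200 replicate 2 and -0.15 with replicate 1 only of DEHP 200. The smallest p there were those of Ern1 (-0.45 ± 0.22), Canx (-0.17 ± 0.10) and Dnajc3 (-0.21 ± 0.12). With replicate 1 only of DEHP 200, Ern1 stood at -0.12, Canx at -0.09 and Dnajc3 at -0.23, and Dnajc3 stood at -0.09 without DEHP 20 replicate 1. Sesn2 (0.32 ± 0.19), Asns (0.43 ± 0.30) and Pdia6 (0.26 ± 0.21) led the DiNP comparison, with 0.19 for Sesn2 without DiNP 100 replicate 1, 0.21 for Asns without DiNP 100 replicate 3 and 0.15 for Pdia6 without DiNP 20 replicate 1.

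At 3 months DEHP 200 was higher than DEHP 20 for 25 (46.7%; median 0.12), with Dnajc3 at 0.20 ± 0.12, Atf4 at -0.33 ± 0.21 and Eif2ak3 at 0.16 ± 0.11, while DiNP 100 was lower than DiNP 20 for 25 (49.6%; median -0.15). Neither sign was stable. The DEHP median was -0.05 without DEHP 200 replicate 2 and 0.23 without its replicate 1. With replicate 3 of DEHP 20 left out it was 0.03. The DiNP median was 0.01 without DiNP 20 replicate 3 or without DiNP 100 replicate 1, -0.30 without DiNP 100 replicate 2 and -0.29 without DiNP 20 replicate 2. In the DiNP comparison 5 genes separated fully downward (4.34% of all genes) and 5 had an unadjusted p under 0.05 on that side (6.21%), the same 5 genes, with Sel1l at -0.36 ± 0.12, Dnajc3 at -0.38 ± 0.12 and Ern1 at -0.63 ± 0.22 (lowest limma adjusted p = 0.4049). Without DiNP 100 replicate 2 at 3 months, 3 genes passed there: Dnajc3, Sel1l and Ern1. The share of all genes passing in that fit was not counted. With all libraries, 12.2% of all genes had an unadjusted p under 0.05 in either direction in this comparison. Without DiNP 100 replicate 3, Ern1 stood at -0.23 and Sel1l at -0.20.

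Beyond the groups, the chaperone genes varied together from library to library. After subtraction of the group means, the median Pearson r over the 28 pairs of chaperones was 0.78 across the 30 libraries, and 100% of the pairs were positive. It was 0.74 over the 40 chaperone-isomerase pairs and 0.68 over the 10 isomerase pairs, against 0.38 over the 15 pairs of the ATF4 branch, 0.06 over the 21 degradation pairs and -0.02 over the 10 sensor pairs. Over all 528 member pairs the median was 0.34, and over pairs among 1 in 10 genes of the table it was -0.0008. These values are descriptions; the genes of a library share its tissue composition and its scaling.

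With Hspa5 the closest members were Creld2 (0.97), Manf (0.94), Sdf2l1 (0.94), Hyou1 (0.87) and Hsp90b1 (0.85), then Ddit3 (0.80), Herpud1 (0.80), Syvn1 (0.78) and Xbp1 (0.76). Atf6 (-0.43), Ern1 (-0.28), Edem1 (-0.15) and Derl1 (-0.13) stood at the other end, 3 of which are genes called over time. In single libraries the mean of the 33 genes was highest in DiNP 20 replicate 3 at 3 months (7.54 log2 CPM), DEHP 200 replicate 2 at 3 months (7.44) and vehicle replicate 2 at 0 months (7.21). It was lowest in DEHP 20 replicate 2 at 0 months (6.501) and in DEHP 200 replicates 3 (6.54) and 1 (6.59) at 0 months.

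**Figure D5:**
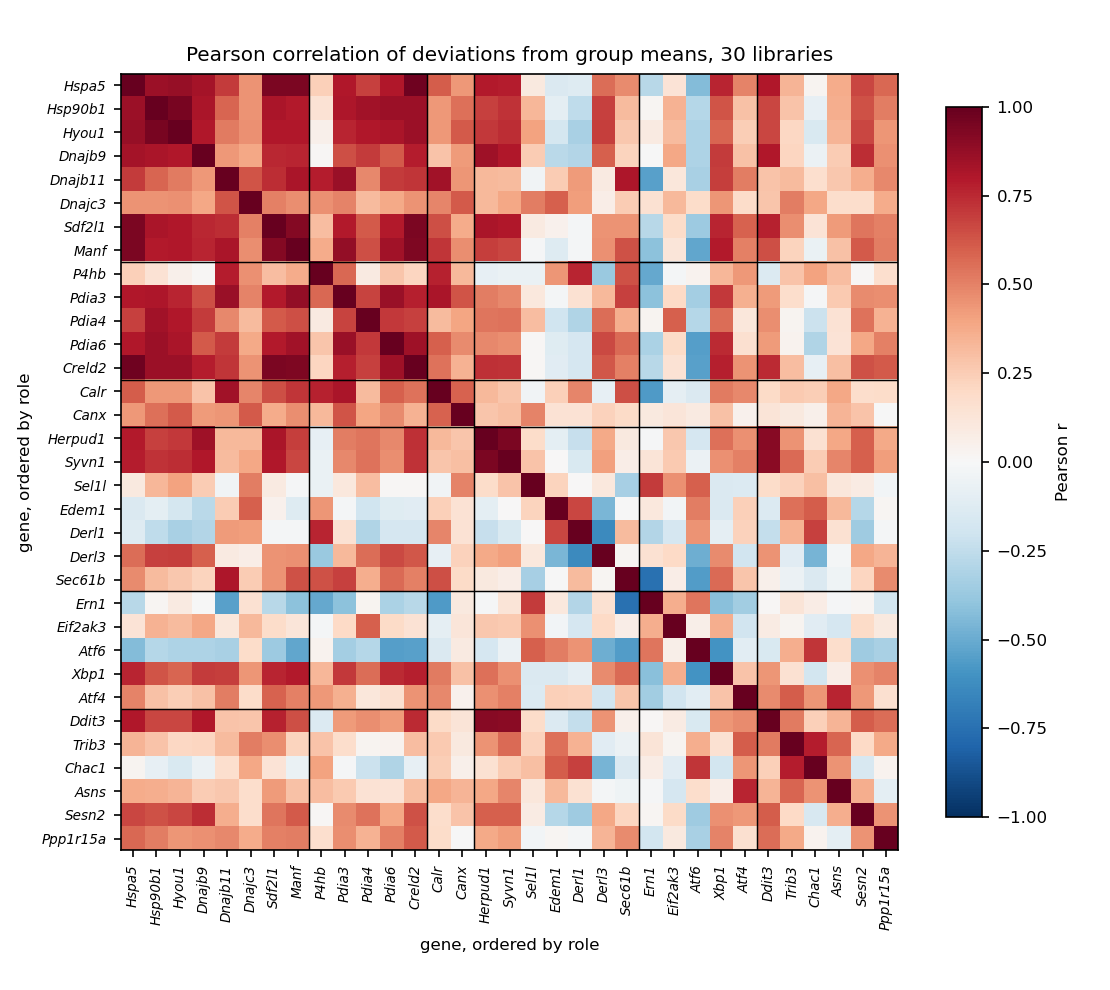
Pearson r (colour) between each pair of the 33 genes, on both axes by role, over 30 libraries after subtraction of group means. The dark red block holds chaperones and isomerases (medians 0.78 and 0.68), and Atf6, Ern1, Edem1 and Derl1 form pale or blue bands against it.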

How the data were processed

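The authors deposited 1 table of log2 CPM per gene and library, and it was used as it stands; its scaling and prior count are not given in the sources used here. Per the submitters' processing notes, the tools were Salmon 0.11.3, FastQC 0.11.8, R 3.5.2 and edgeR (no version named), and the build was GRCm38.p6. Libraries were stranded and read from 1 end, per the labels' protocols. Whole reads could not be recovered (13.8 to 24.9% of low values fell on steps of 1 read), so no count test was run.

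Genes with a mean log2 CPM above 0 (14740 of 18022) were fitted in limma 3.58.1 (R 4.3.3) with a mean for each of the 10 groups, all 30 libraries together and a prior variance that follows the mean, with 20 residual degrees of freedom and 2.85 from the prior. Adjusted p-values are Benjamini-Hochberg over all genes of a comparison, or over both matched pairs of the compounds together; ± is the SE of a difference unless stated. The median residual SD was 0.283 for members and 0.246 for all genes. An exact permutation test of 3 against 3 libraries cannot go below p = 0.1 and was not used.

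The members and lists were chosen with earlier results of these data known. Values per library were given for Hspa5, Hsp90b1, Pdia4, Calr, Xbp1, Atf4, Ddit3 and Herpud1, for genes past adjustment and for the smallest p of the pooled treated comparisons; the 3 smallest p of each comparison were named. The fit was also run on simulated data in which genes varied independently of each other, unlike the members here. Recovery of differences in those data is not given here and bears on no result above. Alternatives were median centring, quantile normalization, a pseudocount of 1 CPM, no filter and a filter above 2, no trend, replicate number as a block, only the groups compared, DEHP 200 at 0 months with replicate 1 only, and each library left out. Of the identifiers 17770 of 18022 matched RefSeq genes, members in 33 of 33.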

Additional observations from a re-analysis of the deposited data

Results flagged for a closer look

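Full separation of the 3 treated from the 3 vehicle libraries upward at 3 months and downward at 0 months was the reason to list 5 results. With DEHP 200, 1 member met both conditions (0.109% of all genes), and with DiNP 20, 4 did (0.129%). With DEHP 20 and DiNP 100, 0 did (0.156% and 0.0882%). Canx with DEHP 200 stood at 0.21 relative to vehicle at 3 months and at -0.32 at 0 months (log2), or at -0.23 with replicate 1 only of DEHP 200 at 0 months. With DiNP 20, Hsp90b1 stood at 0.52 at 3 months and at -0.73 at 0 months. Hyou1 had 0.45 at 3 months and -0.50 at 0 months in that treatment, Pdia6 had 0.41 and -0.48, and Pdia3 had 0.20 and -0.33. The difference between the times was 0.53 ± 0.13 (SE) for Canx, 1.25 ± 0.40 for Hsp90b1, 0.95 ± 0.31 for Hyou1, 0.89 ± 0.30 for Pdia6 and 0.52 ± 0.23 for Pdia3, and 0 of the 5 passed adjustment in limma (adjusted p = 0.9999 for each). These genes were chosen for the pattern, so the differences are a description. The vehicle libraries are shared by all treatments of a time.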

How the results depend on the processing

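All 19 comparisons kept the count of members past adjustment within 1.5 times, with 2 exceptions, both without DiNP 100 replicate 2 at 3 months. There 1 member passed in DiNP 100 against vehicle at 3 months (Ern1), against 0 with all libraries. In DiNP 100 against DiNP 20, 3 passed, against 0 with all libraries. These were Dnajc3 at -0.45, Sel1l at -0.51 and Ern1 at -0.89 (limma adjusted p = 0.04229, 0.02596 and 0.03061). The share of all genes passing was not counted in the fits that left 1 library out. Medians over the members moved by less than the spread between libraries (0.196), although 16 of 19 medians moved by more than 1.5 times or turned sign when 1 library was left out, as given with them. Of 62 differences of single genes named by the smallest p, 28 did so. Over time, 7 to 10 members passed when 1 library was left out and 7 to 9 under the other settings. Trib3 lost its call over time with median centring, without the filter, without the trend and with the replicate block (limma adjusted p = 0.05153, 0.0522, 0.05289 and 0.05716), and its adjusted p ran from 0.008763 to 0.09681 over the leave-outs, at 0.81 to 1.15. Atf6 in DEHP 20 against vehicle at 3 months turned sign without vehicle replicate 3 (0.026, with -0.30 the lowest over the leave-outs). Of the single genes, 1171 values kept direction and side, 26 lost and 4 gained a call, and 1 turned. Same-numbered replicates did not deviate together on average (mean r of -0.0976 to 0.0205), with single pairs from -0.454 to 0.388. These values gave no sign that the numbers pair libraries, but they cannot exclude it. With the replicate block the median of the treated groups against vehicle at 0 months was -0.22 and 7 members passed over time. The cause of these moves was not tested. With 3 libraries per group and no read counts, differences of the size seen in most members were near the error of the test, and counting error could not be separated from other spread.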
